A study of Homo sapiens with 4 samples.

Results

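TRIM24-only promoter sites were places next to a gene start that the TRIM24 chromatin immunoprecipitation listed after androgen treatment and the TRIM28 immunoprecipitation did not. They were selected on measured values: a site of the TRIM24 R1881 list on chromosomes 1 to 22 or X became a member if it shared no base with any site of the TRIM28 R1881 list and if its centre lay within 1 kb of the start (TSS) of a protein_coding transcript. The rule found 1705 members among the 9006 TRIM24 R1881 sites on these chromosomes (9363 in the whole list), and among 107370 sites in the 4 lists of the series. Members lay nearest to 1640 genes, and 1908 genes had a TSS within 1 kb of a member.

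All 4 samples came from LNCaP, a human prostate cancer line that responds to androgen. The cells were kept for 3 days in medium with 5% charcoal-stripped serum, which removes steroid hormones, and then received ethanol (the vehicle) or 10 nM R1881, a synthetic androgen, for 16 h before ChIP-seq. TRIM24 was precipitated through its HA tag in cells that stably expressed HA-TRIM24 besides their own TRIM24, so the antibody read the introduced protein only; whether this line was 1 clone is not given in the sources used here. TRIM28 was precipitated with an antibody to the protein itself, in cells the labels call LNCaP and the study describes as the HA-TRIM24 line. Each of the 4 conditions had 1 sample, so no difference between conditions could be tested. Total tags were 11606880 for TRIM24 ethanol, 12884097 for TRIM24 R1881, 25145171 for TRIM28 ethanol and 14231181 for TRIM28 R1881, and the lists held 5232, 9363, 58201 and 34574 sites in that order. The share of tags inside listed sites was between 1.36% and 4.95%. The site lists were made by the authors, and a site absent from a list is called not listed here, since it may have missed the threshold for a list by a few tags.

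TRIM24 and TRIM28 belong to the TIF1 family of nuclear proteins with TRIM33 and TRIM66. They carry a RING, B-box and coiled-coil module at the amino end and a PHD finger next to a bromodomain at the carboxy end. The PHD finger and bromodomain of TRIM24 read the tail of histone H3, and TRIM24 acts as a coactivator of nuclear receptors. TRIM28 (KAP1) is the corepressor of KRAB zinc finger proteins, which bring it to repeats and to zinc finger genes. Neither protein is known for a DNA motif of its own.

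The sequences of some member sites show the kinds of DNA among them (GRCh37, read on the strand named, 5′ to 3′). The first group are 3 members of over 20 normalized tags that lie outside exons. These sites held the B box core of tRNA genes, GTTCGANTC, an internal promoter element that RNA polymerase III uses, and capitals mark it or its reverse complement.
DPP9 (chr19:4724035-4724191, - strand): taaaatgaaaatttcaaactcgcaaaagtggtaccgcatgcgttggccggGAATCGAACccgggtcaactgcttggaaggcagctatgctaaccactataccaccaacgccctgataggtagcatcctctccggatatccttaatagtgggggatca
TIA1 (chr2:70476083-70476239, - strand): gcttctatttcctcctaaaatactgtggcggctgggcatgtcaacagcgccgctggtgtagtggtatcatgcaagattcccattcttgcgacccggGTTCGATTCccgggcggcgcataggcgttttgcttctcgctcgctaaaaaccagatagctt
SCAND3 (chr6:28565087-28565243, - strand): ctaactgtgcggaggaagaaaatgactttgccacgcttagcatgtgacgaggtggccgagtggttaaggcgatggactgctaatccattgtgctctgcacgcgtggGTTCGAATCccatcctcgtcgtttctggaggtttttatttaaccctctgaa
The second group are the strongest members with the ETS core CCGGAAG, in capitals, which factors of the ETS family bind. The first is a whole site and the second a stretch of 27 bases.
METTL3 (chr14:21979517-21979673, - strand): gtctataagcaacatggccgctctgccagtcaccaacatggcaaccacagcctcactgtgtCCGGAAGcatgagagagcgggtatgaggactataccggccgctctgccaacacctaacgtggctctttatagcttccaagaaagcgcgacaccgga
ADPRS (chr1:36554468-36554494, + strand): gagggcggcaCCGGAAGtggcgagcag
The third group are the strongest members with the YY1 core AAGATGGC or its reverse complement, in capitals. YY1 is a zinc finger factor found at promoters, and the second sequence is a stretch of 28 bases.
SLX4IP (chr20:10415759-10415915, + strand): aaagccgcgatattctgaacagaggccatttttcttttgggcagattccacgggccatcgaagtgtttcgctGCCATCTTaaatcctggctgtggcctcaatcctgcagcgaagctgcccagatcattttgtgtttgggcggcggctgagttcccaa
MICU2 (chr13:22178273-22178300, - strand): cgcttccgcaAAGATGGCggcggctgcg
The last group shows CpG-rich sites of fewer tags, at FKBP5 with 11.6 normalized tags in TRIM24 R1881 (above the upper quartile of members, 10.1) and at TRIM33 with 7.0 (below the lower quartile, 7.8). Capitals mark each CG step, 19 in the FKBP5 site and 13 in the TRIM33 site.
FKBP5 (chr6:35695690-35695846, - strand): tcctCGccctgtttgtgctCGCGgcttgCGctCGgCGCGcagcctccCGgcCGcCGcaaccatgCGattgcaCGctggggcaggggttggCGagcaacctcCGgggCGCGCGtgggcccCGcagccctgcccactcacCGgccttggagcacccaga
TRIM33 (chr1:115053991-115054147, - strand): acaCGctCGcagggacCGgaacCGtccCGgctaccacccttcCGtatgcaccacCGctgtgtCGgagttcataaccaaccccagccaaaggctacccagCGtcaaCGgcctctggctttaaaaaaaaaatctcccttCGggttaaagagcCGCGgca

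Most members were weak. Strength is given as normalized tags, the tags in a site scaled to 10000000 tags in the library. Members ran from 5.4 to 136.6 normalized tags with a median of 8.5, where the shared promoter sites (TRIM24 R1881 promoter sites that overlapped TRIM28 R1881) had a median of 9.3 and a maximum of 955.4. The lower quartile of members was 7.8 and the upper 10.1. Scaled back by the library total, the median member held 11 tags, and 1254 members (73.5%) held 12 or fewer. Fold over the local surrounding 10 kb ran from 4.25 to 66.4, with a median of 8.9. These values chose the members and are given without a test. A count of this size has a wide error of its own: the TRIM33 site had 7.0 normalized tags with an exact Poisson 95% interval of 3.19 to 13.3, which covers counting error only, as do all intervals below.

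A small set of members stood far above the rest. The strongest was at PGK1, which encodes the glycolytic enzyme phosphoglycerate kinase (chrX:77359404-77359560, 263 bp upstream of the nearest TSS and within an intron of another transcript). It had 136.6 normalized tags in TRIM24 R1881 (interval 117 to 158), 148.2 in TRIM24 ethanol (127 to 172), and was listed in neither TRIM28 sample. The nearest TRIM28 R1881 site lay 61511 bp away. Both libraries from HA-TRIM24 immunoprecipitation were therefore high at this place and within each other's counting error.

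NDUFS7, a subunit of respiratory complex I, had the next strongest member (chr19:1383483-1383639, 35 bp downstream of the TSS). It held 96.2 normalized tags with R1881 (80.0 to 115) and 54.3 with ethanol (41.7 to 69.4), and was not listed in TRIM28 ethanol. A TRIM28 R1881 site of 23.2 normalized tags lay 109 bp from it, so it met the rule by position and not by an empty neighbourhood. DPP9, a serine dipeptidase gene, had 2 members, 258 and 862 bp upstream. The nearer held 88.5 normalized tags with R1881 (73.0 to 106), 52.6 in TRIM24 ethanol (40.2 to 67.5) and 12.3 in TRIM28 ethanol (8.38 to 17.5). The farther held 25.6, 25.8 and 8.0 in the same order. PPP6R3, a regulatory subunit of protein phosphatase 6, had a member 537 bp upstream with 83.8 normalized tags (68.8 to 101), 53.4 in TRIM24 ethanol (41.0 to 68.5) and 11.1 in TRIM28 ethanol. At NDUFS7, DPP9 (the nearer site) and PPP6R3 the R1881 and ethanol intervals of TRIM24 did not overlap, but these intervals hold no error between cultures.

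Further members among the 10 strongest were AIM2 (49.7 normalized tags with R1881, 25 with ethanol), RNASE11 (49.7 and 25.8), H3-3B with UNK (48.9 and 43.1), ALOXE3 (48.1 and 33.6) and TMEM259 (41.9 and 30.2). The TRIM24 intervals did not overlap at AIM2 (38.3 to 63.4 with R1881, 16.7 to 35.9 with ethanol) or RNASE11 (38.3 to 63.4, 17.4 to 36.9). At H3-3B, ALOXE3 and TMEM259 they overlapped. Of the 10 strongest, 9 were listed in TRIM24 ethanol and 5 in TRIM28 ethanol.

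Sites at short RNA genes were frequent among these strong members, a pattern looked for after the values were seen and given as counts without a test. Of the 24 members with 20 or more normalized tags, 8 lay at a gene with a RefSeq tRNA gene within 2 kb of its 5′ end: NDUFS7, DPP9 (both sites), ALOXE3, ANG, TIA1, LASP1 and PPEF1. Of all 19043 genes that could be looked up, 50 (0.263%) had such a tRNA neighbour. The B box core was in 5 of the 24, and 1, at TMEM259, lay within 200 bp of the start of RNU6-2, a U6 spliceosomal RNA gene. Together 12 of the 24 (50%) met at least 1 of these marks, against 6 of 427 members of 10 to 20 normalized tags (1.41%) and 9 of 1254 weaker ones (0.718%). The strong end of the shared promoter sites looked alike, with 36 of 54 sites of 20 or more normalized tags (66.7%) meeting a mark. Over all members the marks covered 27 sites, 1.58%.

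**Figure D1:**
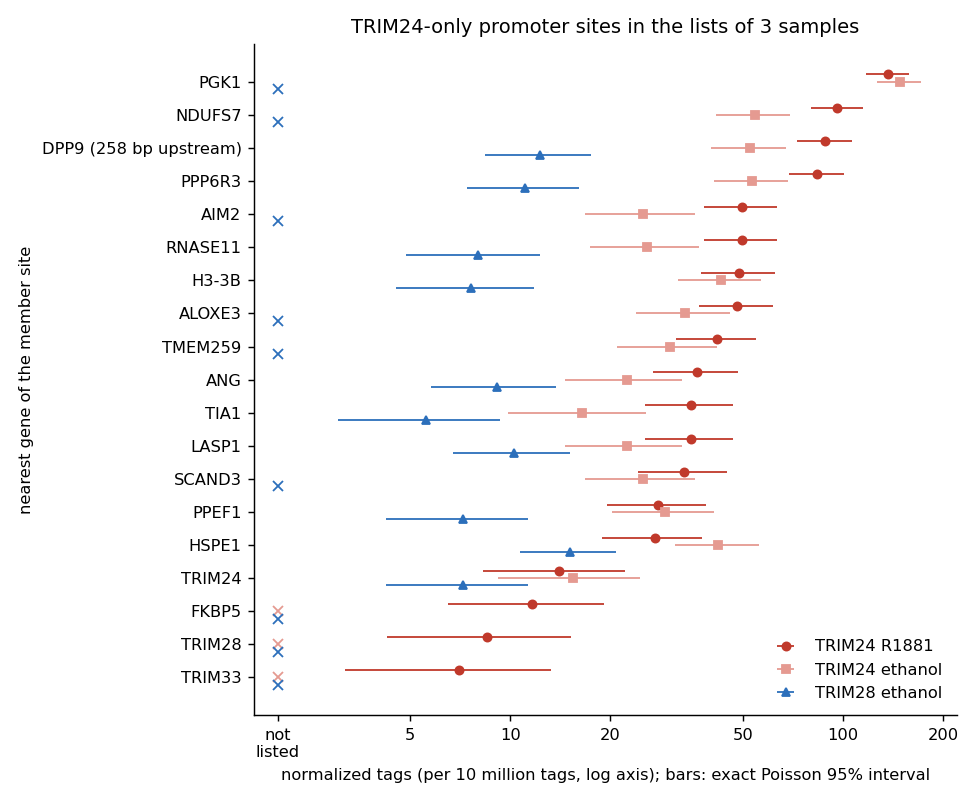
Normalized tags on a log axis for 15 strong members named by the rule or for a short RNA neighbour, and for the sites at TRIM24, FKBP5, TRIM28 and TRIM33, in TRIM24 R1881 (circles), TRIM24 ethanol (squares) and TRIM28 ethanol (triangles), 1 sample each, with exact Poisson 95% intervals; crosses at the left mark sites not listed. TRIM24 is high with and without R1881 at the top sites, at PGK1 with 136.6 and 148.2 normalized tags, and the FKBP5, TRIM28 and TRIM33 sites are in neither ethanol list.

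The TRIM24 gene had a member of its own, listed in 3 samples. At chr7:138145260-138145416 it held 14 normalized tags in TRIM24 R1881 (8.28 to 22.1), 15.5 in TRIM24 ethanol (9.19 to 24.5) and 7.2 in TRIM28 ethanol (4.24 to 11.3). A TRIM28 R1881 site of 6.3 normalized tags lay 92 bp away. The member lay wholly inside an exon at the start of the gene (138145004 to 138145657). The TRIM24 R1881 list had 2 more sites in this gene, of 7.8 and 7.0 normalized tags, and the centre of each was in an exon as well (138223402 to 138223548 and 138239443 to 138239609), whereas 8 of the 9 TRIM28 ethanol sites in the gene had centres outside exons. The immunoprecipitated cells carried an introduced TRIM24 sequence, and PGK1 promoter sequence is also in wide use in expression vectors. The part that tags from introduced DNA had in the TRIM24 and PGK1 members was not tested.

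Members were less often listed in the ethanol samples than shared promoter sites were. Of the 1705 members, 246 (14.4%, Wilson 95% interval 12.8 to 16.2) overlapped a TRIM24 ethanol site, against 420 of 1284 shared promoter sites (32.7%, 30.2 to 35.3), an odds ratio of 0.347 and an adjusted p of 1.31e-31. Over all 9006 TRIM24 R1881 sites the share was 25.5%. TRIM28 ethanol listed 844 members (49.5%, 47.1 to 51.9), against 1031 shared promoter sites (80.3%, 78.0 to 82.4, odds ratio 0.241, exact adjusted p = 7.41e-68) and 53.3% of all TRIM24 R1881 sites. Shared promoter sites were chosen by overlap with TRIM28 R1881 and members by its absence. A TRIM28 difference in this direction was therefore built into the choice of groups. TRIM24-only distal sites, farther than 1 kb from such a TSS and not overlapping TRIM28 R1881, were in TRIM28 ethanol in 734 of 2783 cases (26.4%), fewer than members (odds ratio 2.74, exact adjusted p = 2.99e-54). Absence from the TRIM28 R1881 list thus did not mean absence from the TRIM28 ethanol list, which was made from 1.77 times as many tags. These and the tests below are two-sided Fisher exact tests with Benjamini-Hochberg adjustment over 47 tests. They compare groups of sites within single samples, and sites are not replicates of a condition.

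The TRIM24 ethanol difference between members and distal sites was small and depended on strength. Distal sites were listed in TRIM24 ethanol in 509 of 2783 cases (18.3%), a difference of -3.86 percentage points, members minus distal sites (odds ratio 0.753, exact adjusted p = 0.00195). Among sites of 7 to 10 normalized tags the order turned round, with 10.8% of members and 8.97% of distal sites listed (exact adjusted p = 0.264). Strength went with listing within the members too: 22 of 24 members with 20 or more normalized tags were in TRIM24 ethanol (91.7%), 92 of 427 of 10 to 20 (21.5%) and 132 of 1254 below 10 (10.5%). For TRIM28 ethanol the same 3 classes gave 50%, 53.2% and 48.2%.

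Taking both ethanol lists, 147 members (8.62%) were in both, 697 in TRIM28 ethanol alone, 99 in TRIM24 ethanol alone and 762 (44.7%) in neither. In the 246 members with a TRIM24 ethanol site, R1881 and ethanol levels were close: the median log2 ratio of normalized tags, R1881 over ethanol, was -0.06, with quartiles of -0.35 and 0.20. Of these, 91 were higher with R1881, 153 lower and 2 equal. Only sites listed in both TRIM24 samples entered, so members with ethanol counts below the threshold were left out. This choice limited how far ethanol could lie below R1881. Neither a change nor a lack of change with R1881 can be read from these ratios. Among the members with the highest TRIM28 ethanol values were those at SLC39A13, a zinc transporter (17.5), GTF2H2C, a paralog of a TFIIH subunit gene (17.1), MRPL16, a mitochondrial ribosomal protein (15.5), and METAP1D, a mitochondrial methionine aminopeptidase (15.5). At SLC39A13, GTF2H2C and MRPL16 a TRIM28 R1881 site lay 2, 2 and 1 bp beyond the edge of the member. GTF2H2C has near-identical gene copies, so its tags cannot be placed with certainty.

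**Figure D2:**
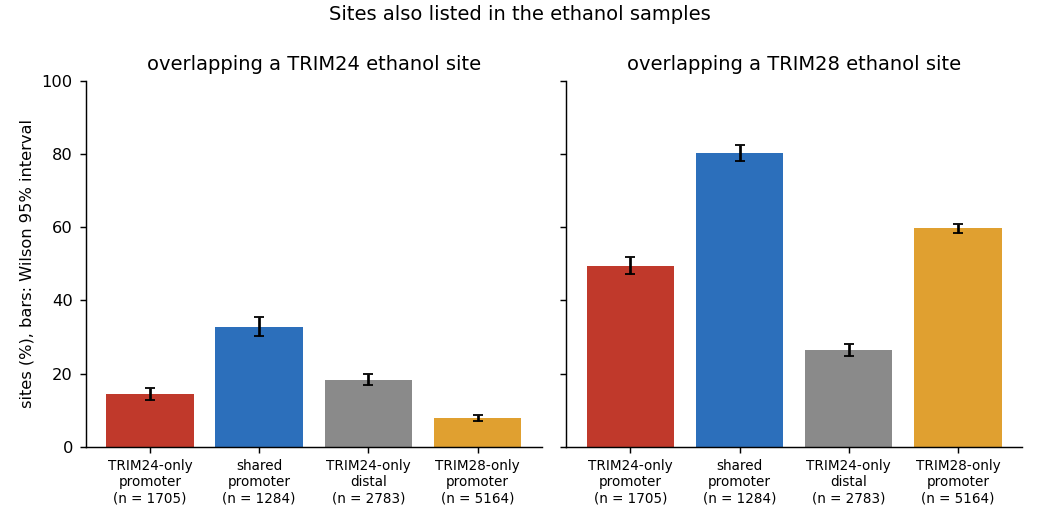
Share of sites (%) that overlap a TRIM24 ethanol site (left) or a TRIM28 ethanol site (right), for 4 groups of sites chosen on the R1881 lists, with Wilson 95% intervals. Members stand at 14.4% and 49.5%, below the shared promoter sites at 32.7% and 80.3%.

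The rule placed members outside TRIM28 R1881 sites, and distances to these are given for members only, with no comparison group. A TRIM28 R1881 centre was within 200 bp of 114 members (6.69%), within 500 bp of 519 (30.4%) and within 1000 bp of 674 (39.5%). At 10000 bp the count was 1020 (59.8%). Had sites with centres within 500 bp been called overlapping, 1186 members would remain, 5 of the 10 strongest among them. Of the 1908 genes with a member, 810 (42.5%) also had a TRIM28-only promoter site, beside 25.8% of all genes. A shared promoter site was at 112 of them (5.87%), beside 7.30% of all genes. These were 15.9% and 7.77% of the 5089 and 1442 genes with such sites, where 9.66% of all genes had a member. Among the members at the overlap limit were those at ZNF484 (11.6 normalized tags) and AQR (9.3) and that at MRPL16, each with a TRIM28 R1881 site ending or beginning at the adjacent base. Just outside it were sites at PRCC (9.3) and TFAP2C (7.8), which shared 1 bp with TRIM28 R1881 sites of 7.7 and 6.3. At the 1 kb limit the members farthest out were PPEF1 (967 bp) and RHOB (962 bp), and the nearest excluded sites were at BTG1 (1004 bp) and ID1 (1006 bp). Levels on the 2 sides of each limit were alike in size, apart from the 27.9 normalized tags at PPEF1.

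Members sat more to the downstream side of the TSS than shared promoter sites. The median centre was 32 bp downstream, with quartiles at 97 bp upstream and 128 bp downstream, where shared promoter sites and TRIM28-only promoter sites both had a median 17 bp upstream. Centres were upstream of the nearest TSS in 705 members (41.3%) and 729 shared promoter sites (56.8%), an odds ratio of 0.537 with an adjusted p of 3.55e-16. The bin from 0 to 200 bp downstream held 715 members (41.9%), and that from 200 to 500 bp held 193 (11.3%) against 61 shared promoter sites (4.75%). By gene model, 285 member centres were in a coding exon (16.7%), 583 in a UTR (34.2%), 439 in an intron (25.7%) and 398 outside protein_coding transcripts (23.3%). In shared promoter sites these shares were 10.3%, 32.1%, 22.3% and 35.4%. Starts on both strands within 1 kb, as at bidirectional promoters, occurred at 235 members (13.8%) and 160 shared promoter sites (12.5%), which did not differ beyond counting error (exact adjusted p = 0.441).

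**Figure D3:**
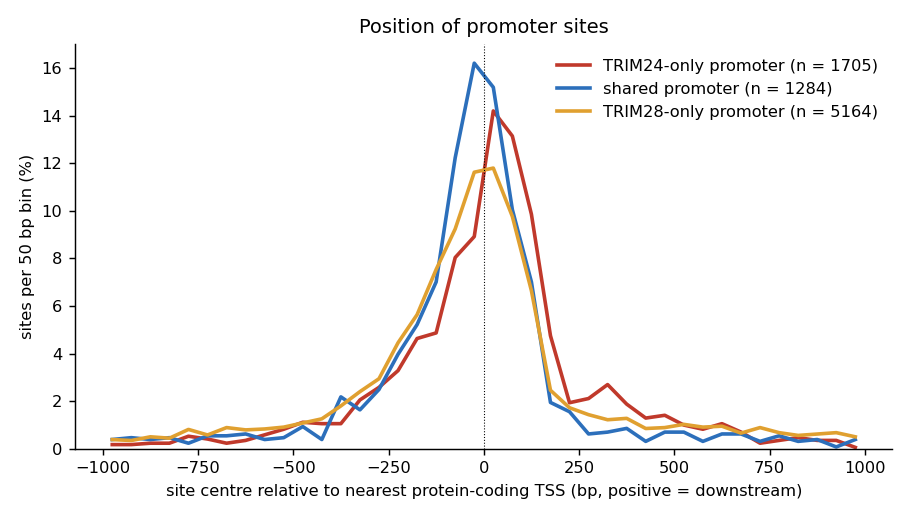
Distance of site centres from the nearest protein_coding TSS (bp, positive is downstream) as percent of sites per 50 bp bin, for members, shared promoter sites and TRIM28-only promoter sites. The member curve peaks downstream of the TSS (median 32 bp) and those of the other 2 groups peak around it (median 17 bp upstream).

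Members were rich in GC and in CG steps. In the 200 bp around the centre the median GC content was 70.0% and the median ratio of observed to expected CG steps 0.873. A window of at least 50% GC with a ratio of at least 0.6 is called CpG-rich here, and 1488 members had one (87.3%), against 365 distal sites (13.1%; odds ratio 45.4), 71.5% of TRIM28-only promoter sites and 56.6% of windows centred on all 78394 protein_coding TSSs. The difference from distal sites had an adjusted p of at most 8.62e-220 in 12 alternative settings. Members were chosen for lying at a TSS and distal sites for lying away from one. Promoters are known to be CpG-rich, so this difference cannot be told apart from promoter position. Shared promoter sites were CpG-rich in 1081 cases (84.2%, odds ratio 1.29, exact adjusted p = 0.0376), a difference that missed the threshold in 8 of 12 alternative settings.

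Among 13 motifs searched on both strands of the 200 bp window, 1 differed between members and shared promoter sites. The ETS core CCGGAAG was in 174 members (10.2%) and 205 shared promoter sites (16.0%), an odds ratio of 0.598 with an adjusted p of 1.10e-05; all TSS windows held it in 9.42%, and TRIM28-only promoter sites in 9.60%. Among the stronger 50% of TRIM24 R1881 sites the difference missed the threshold (11.5% of members and 15.5% of shared promoter sites, exact adjusted p = 0.107). The strongest with it were METTL3, which encodes the catalytic subunit of the RNA m6A methyltransferase (15.5 normalized tags with R1881, 14.6 with ethanol, 10.3 in TRIM28 ethanol), and ADPRS, an ADP-ribosyl hydrolase (15.5, 13.8 and 8.4).

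The YY1 core AAGATGGC was in 82 members (4.81%), against 122 of 5164 TRIM28-only promoter sites (2.36%; odds ratio 2.09, exact adjusted p = 2.91e-06) and 3.02% of all TSS windows. In shared promoter sites it stood at 3.97% (exact adjusted p = 0.441). In a 100 bp window the difference from TRIM28-only promoter sites missed the threshold (1.88% against 1.26%, exact adjusted p = 0.160). SLX4IP with MKKS (23.3 normalized tags with R1881, 24.1 with ethanol) and MICU2, a regulator of mitochondrial calcium uptake (15.5, not listed in TRIM24 ethanol), were the strongest with it. The TATA core TATAAA and the forkhead core TGTTTAC were less frequent in members (2.11% and 1.47%) than in TRIM28-only promoter sites (3.85% and 2.71%; exact adjusted p = 0.00108 and 0.00786), and neither difference passed among sites within 200 bp of a TSS (exact adjusted p = 0.415 and 0.479). Of 14 alternative settings, that one included, the TATA difference missed the threshold in 2 and the forkhead difference in 4. Among the 4 was a promoter distance of 500 bp (Fisher's exact test, exact adjusted p = 0.109). TATAAA was in 5.73% and TGTTTAC in 1.62% of all TSS windows.

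Motif differences between members and distal sites cannot be told apart from the choice of the 2 groups by TSS distance. Against distal sites 10 of the 13 motifs passed the test. Those of promoters were higher in members: the Sp/KLF core CCCCGCCC (13.9% against 1.58%), ETS (1.40% in distal sites), YY1 (0.503%), the E2F core GGCGGGAA (2.82% against 0.431%), the NRF1 core GCATGCGC (2.46% against 0.647%), the USF E-box GTCACGTG (1.94% against 0.287%) and the CRE TGACGTCA (0.997% against 0.287%). Forkhead (1.47% against 12.5%), TATAAA (2.11% against 14.1%) and the full androgen response element with up to 1 mismatch (1 member, at ZNF512, against 40 distal sites, 1.44%) were lower. In all TSS windows the Sp/KLF core stood at 19.4%, E2F at 2.48%, NRF1 at 2.32%, USF at 1.97%, CRE at 1.51% and the androgen response element at 0.236%. The NF-Y core CCAATNAG (1.52% of members, 4.18% of TSS windows), the ZNF143 core ACTACAATT (0.411% and 0.210%) and CTCF passed no test against any group. CTCF with up to 3 mismatches was in 0 members and in 0.0472% of TSS windows. E2F and Sp/KLF cores can share bases. A match is a description of letters only.

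**Figure D4:**
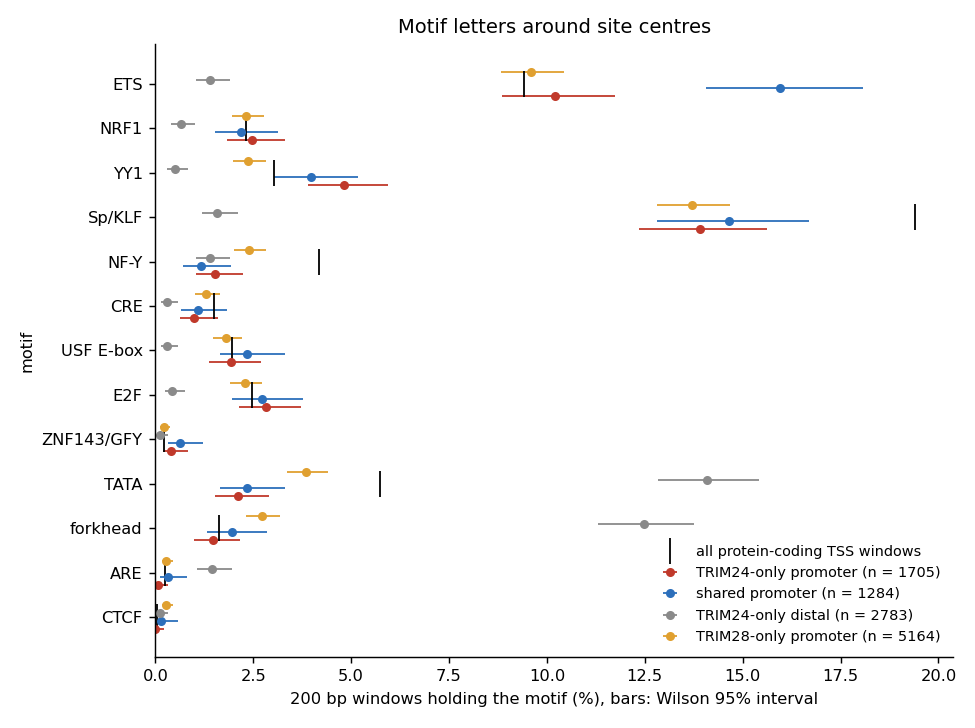
Share of 200 bp windows (%) that hold each of 13 motifs, for members and 3 other groups of sites with Wilson 95% intervals; black ticks give all protein_coding TSS windows. ETS is higher in shared promoter sites (16.0%) than in members (10.2%), and forkhead and TATA are high in TRIM24-only distal sites only (12.5% and 14.1%).

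Of 19748 protein-coding genes, 9.66% had a member within 1 kb, and the gene lists below are counts to be read beside that share, with no test. Of the 22 lists 19 lay above it, though DNA repair (9.80%), core histone (9.88%) and histone-modifying genes (10.1%) were close to it. TRIM28-only promoter sites were at 25.8% of all genes. The same 19 lists lay above that share too, except cell cycle (25.6%), DNA repair (25.5%) and core histone genes (19.8%). Cytosolic ribosomal proteins had the highest share with a member, 25 of 84 genes (29.8%, Wilson interval 21.0 to 40.2). Shared promoter sites (13.1% of these genes, 7.30% of all) and TRIM28-only promoter sites (41.7% and 25.8%) were more frequent at them too. Their members were ordinary in strength, with a median of 8.5 normalized tags as over all members. RPLP1, a protein of the ribosomal stalk, was the strongest (14 with R1881, 14.6 with ethanol, 8.0 in TRIM28 ethanol), followed by RPL13 (12.4) and RPL27A (11.6), both absent from TRIM24 ethanol. The RPL27A site also lay within 1 kb of the TRIM66 start. Among stronger sites only, the upper 50% of the TRIM24 R1881 list, 8.33% of ribosomal protein genes had a member and 3.52% of all genes.

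Heat shock and chaperonin genes had members in 17 of 80 cases (21.2%, 13.7 to 31.4), shared promoter sites in 10% and TRIM28-only promoter sites in 43.8%. The strongest was the shared promoter of HSPE1 and HSPD1, the pair of mitochondrial chaperonin genes, with 27.2 normalized tags with R1881 (18.9 to 37.8), 42.2 with ethanol (31.2 to 55.8) and 15.1 in TRIM28 ethanol. TCP1 and HSP90AB1 were also higher in TRIM24 ethanol (18.1 and 17.2) than in R1881 (10.9 and 10.1), a feature singled out after the values were seen. The intervals of the 2 samples overlapped at HSPE1 and at TCP1 (5.94 to 18.2 with R1881, 11.2 to 27.7 with ethanol). They also overlapped at HSP90AB1 (5.37 to 17.3 with R1881, 10.5 to 26.6 with ethanol). Of the 246 members that had to be listed in both TRIM24 samples, 153 were lower with R1881. CCT3, a chaperonin subunit, had 14 with R1881 and was in neither ethanol list.

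Androgen-induced genes, a list of 42, had members at 10 (23.8%, 13.5 to 38.5). Among them were FKBP5, SLC45A3, TPD52, FASN, PLPP1, ABCC4 and HOMER2, with TRIM24 R1881 levels from 8.5 to 12.4. TPD52 was the strongest (12.4, and 9.9 in TRIM28 ethanol). FKBP5, a cochaperone of steroid receptors, and SLC45A3, known as prostein, both had 11.6 and were in neither ethanol list. FASN, the fatty acid synthase, had 10.1 and was in neither ethanol list as well. None of these 7 sites was listed in TRIM24 ethanol. A gain with androgen cannot be read from this, since 14.4% of members overall were listed in TRIM24 ethanol and counts of this size sit at the threshold for the list. Of the same list 20 genes (47.6%) had a TRIM28-only promoter site, beside 25.8% of all genes.

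Prostate lineage factors had members at 3 of 25 genes (12%). FOXA1, a forkhead pioneer factor (10.9 with R1881, in neither ethanol list), and GRHL2 (10.1) were among them. The genes KLK3 and SPOP had no member. Among tripartite motif genes 6 of 73 had one (8.22%), near the share of all genes. They were TRIM24, TRIM66, TRIM52 (9.3), TRIM28 (8.5), TRIM25 (7.8) and TRIM33 (7.0), so each of the 4 TIF1 genes had a member, TRIM66 by the site it shared with RPL27A. The TRIM28 member (chr19:59056184-59056340) was in neither ethanol list, and a TRIM28 R1881 site of 9.1 normalized tags lay 146 bp from it. That of TRIM33 had one of 8.4 at 62 bp.

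Zinc finger genes had members at their starts in 72 of 508 cases (14.2%, 11.4 to 17.5). The study reports TRIM28 at both promoters and 3′ coding exons of such genes. Shared promoter sites (13.0% of these genes, 7.30% of all) and TRIM28-only promoter sites (36.4% and 25.8%) were more frequent at them too. The strongest members were at ZNF844 (18.6), ZNF839 (17.1) and ZNF518B (15.5). The ZSCAN, ZKSCAN and ZFP genes had 6 of 49 (12.2%), led by the site of ZNF174 with ZSCAN32 (13.2). In the translation and transcription machinery, initiation factors had 9 of 46 (19.6%; EIF2B3 11.6, EIF4A1 10.9), RNA polymerase II and general factors 15 of 84 (17.9%; TAF5 10.9, MED15 10.1), aminoacyl-tRNA synthetases 6 of 37 (16.2%; QARS1 10.9) and splicing factors 12 of 84 (14.3%; SRSF8 11.6). Mitochondrial ribosomal proteins had 12 of 78 (15.4%; MRPS6 13.2) and oxidative phosphorylation genes 11 of 84 (13.1%; NDUFS7 above, then ATP5F1C 10.1). SPOP, cullins and RING ligase core genes had 3 of 16 (18.8%; RBX1 10.1, DDB1 7.8, CUL7 7.0), and proteasome genes 7 of 48 (14.6%; PSMB7 14).

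The remaining lists were replication licensing and DNA polymerases (6 of 41, 14.6%, with a wide interval of 6.88 to 28.4), cell cycle genes (5 of 43, 11.6%), histone-modifying enzymes and readers (7 of 69, 10.1%; HDAC4 and KAT6B 12.4 each), core histone genes (8 of 81, 9.88%), DNA repair genes (5 of 51, 9.80%) and solute carriers (32 of 337, 9.50%). Olfactory receptor genes had 1 member among 388 genes (0.258%), at OR1F1 (12.4), which has a tRNA gene within 2 kb of its 5′ end. How far expression in LNCaP sets these shares was not tested.

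**Figure D5:**
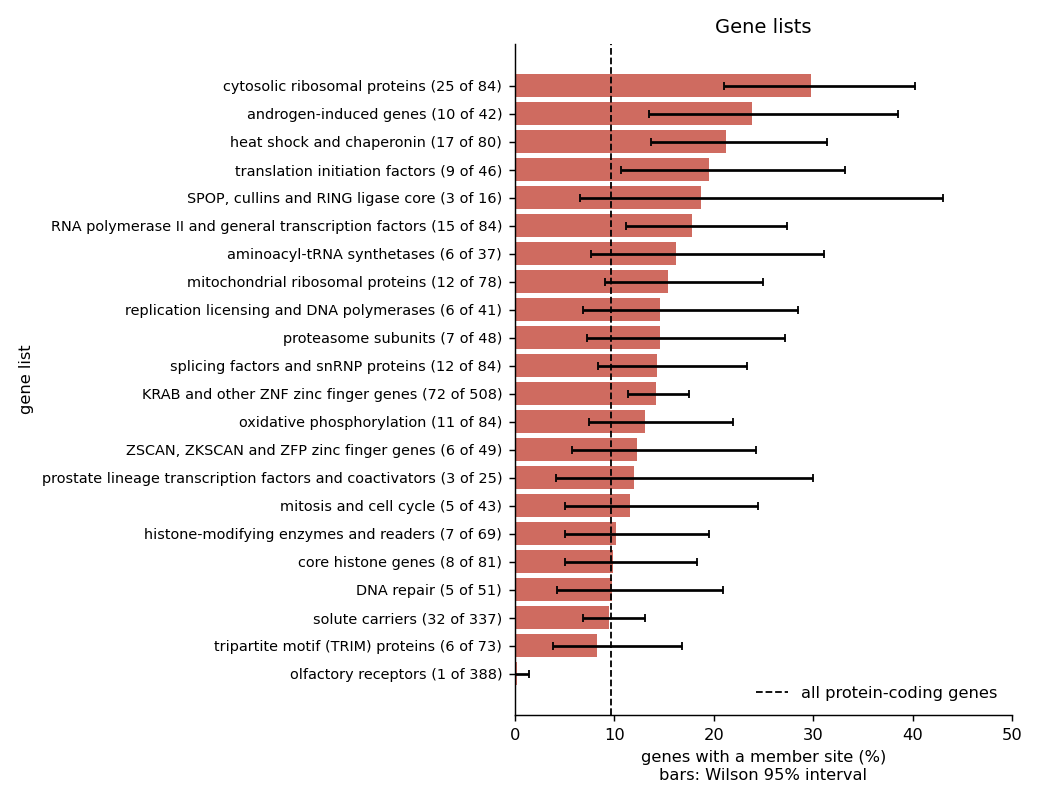
Share of genes (%) with a TRIM24-only promoter site in 22 gene lists, with Wilson 95% intervals; the dashed line is the 9.66% of all protein-coding genes. Cytosolic ribosomal proteins lie highest (29.8%) and olfactory receptors lowest (0.258%).

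By chromosome, members were scarce on X. Of 862 X-linked genes 11 had a member (1.28%), and chromosome 13 followed with 14 of 319 (4.39%). All other chromosomes lay between 6.91% (chromosome 6) and 13.4% (chromosome 7). Low counts on X were common to the promoter groups: 10 members (0.587%), 5 shared promoter sites (0.389%) and 30 TRIM28-only promoter sites (0.581%), against 49 distal sites (1.76%). The part of DNA copy number in these counts was not tested.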

How the data were processed

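The 4 samples were ChIP-seq libraries of LNCaP cells, 1 per condition. Per the labels and file headers, the authors aligned reads to hg19 with BWA 0.6.1 and called sites with HOMER 4.1 at an FDR of 0.001, requiring a fold of at least 4 over the local 10 kb and a p-value under 1e-04. The methods say that libraries were matched in reads by random picking, while headers give different totals. In the deposited lists the signal is a normalized tag count per 10000000 tags. The deposited lists also hold a fold ratio over local and a p-value. The deposited peak score and the deposited focus fraction (the share of tags near the centre) were computed by the authors' HOMER run and were not used for any result. The headers name no input library, so local folds are the only background. Members and gene lists were chosen with earlier results of these data known.

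Sites on chromosomes 1 to 22 and X were kept. Overlap meant 1 bp. TSSs came from GENCODE 44 lifted to GRCh37, tRNA neighbours from RefSeq (names and neighbourhood only; 1865 of 1908 member genes matched). Normalized tags times library total came out whole within 0.1 for 100% of members, which gave the tag counts and exact Poisson intervals. Shares of sites were compared by Fisher's exact test in scipy 1.17.1 with adjustment over 47 tests, after checks of overlap, motif search and test on simulated data. Named sites were the 10 strongest members, the 5 strongest in each ethanol list, up to 3 per gene list, the 2 strongest per motif past an adjusted p of 0.05, those nearest each limit, and the study's genes, of which some are not reported here; any other is said to be chosen after its values were seen, and so are all of the TRIM and androgen-induced genes beyond 3. Alternatives varied the overlap, promoter distance, transcripts, strength, window and ethanol threshold. Counting error is the only error the intervals hold.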

Additional observations from a re-analysis of the deposited data

How the results depend on the processing

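Of the 8 share tests, 5 kept direction and side of the threshold in every alternative run: TRIM24 ethanol listing against shared promoter sites (members minus comparator, -21.3 to -11.7 percentage points), TRIM28 ethanol listing against shared (-36.1 to -21.6) and distal sites (14.1 to 42.2), centres upstream (-17.2 to -10.3) and CpG-rich windows against distal sites (71.0 to 77.4). The CpG-rich difference from shared promoter sites missed the threshold with at least 50% overlap of the shorter site (3.11 points), centres within 500 bp (1.07), a 500 bp promoter (1.18), basic transcripts (2.72), fold of at least 6 (2.88), 1 site per gene (2.53), and, both chosen after seeing the data, sites of 7 to 10 normalized tags (1.36) and sites away from tRNA, B box or small RNA genes (2.44). TRIM24 ethanol listing against distal sites missed it with centres within 500 bp (-2.79), any transcript type (-2.22) and 1 site per gene (-2.75), and turned round to 1.81 at 7 to 10 normalized tags. Starts on both strands passed with any transcript type (5.57) and changed sign at 7 to 10 normalized tags (-0.32, not called). The causes were not tested. The rule itself set shared promoter sites apart by TRIM28 R1881 listing and distal sites apart by TSS distance. Stability of the TRIM28 ethanol difference from shared sites and of the CpG-rich difference from distal sites is therefore no independent support. Members numbered 607 among the stronger 50% of sites and 1132 at 7 to 10 normalized tags, by construction, and 1186 to 2085 otherwise. Motif calls numbered 14, and stayed within 1.5 times that; over all alternatives 11 calls of single motifs were lost. Depth is a limit: with a median of 11 tags a member, a few tags decide whether a site is listed. No paired analysis was possible because each condition had 1 sample.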
